A study of Mus musculus with 4 samples.

Results

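Translation factors and mRNAs of the terminal oligopyrimidine (TOP) class were examined in RNA from exosomes, small vesicles shed by cells into culture medium. The set held 10 genes, taken by name from the 42977 rows of the deposited gene table, and all 10 were found there as protein-coding genes. They were Eef1a1, Eef1b2, Eef1g and Eef2 of elongation, Eif4a1 and Eif4g2 of initiation, the poly(A)-binding protein gene Pabpc1, Tpt1, and the nucleolar protein genes Npm1 and Ncl. The vesicles came from bone marrow mesenchymal stem cells (MSCs) of male SD rats aged 6 to 8 weeks, grown to passages 3 to 4. For the MSCATV-Exo libraries (n = 2) the cells had received 1 µmol/L atorvastatin (ATV), a statin that blocks cholesterol synthesis at HMG-CoA reductase. For the MSC-Exo libraries (n = 2) they had received an equal volume of the solvent DMSO. Both groups were kept in exosome-free medium before collection. The length of the pretreatment is given in the labels both as 24 h and as 48 h. No label ties a library to an animal or a separate culture, so the errors and p-values here measure the spread between libraries, which may be technical. The samples are registered as mouse, whereas the cells, the genome build and the gene identifiers are rat.

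During translation, the eIF4F complex, which includes the RNA helicase eIF4A and a large scaffold protein, brings an mRNA to the small ribosomal subunit, and poly(A)-binding protein joins the tail of the mRNA to that complex. Elongation factor 1A then delivers aminoacyl-tRNAs, its exchange factor (the 1B complex) recharges it with GTP, and elongation factor 2 moves the ribosome along. The mRNAs of ribosomal proteins and of many elongation factors begin with a C and a run of pyrimidines, the TOP tract, through which the mTOR kinase and the protein Larp1 set their translation together. MSCs, like other growing cells, hold these mRNAs in large amounts. No rat sequence was used here, so the tracts themselves were not read.

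Library sizes and composition set the frame for these values. The gene table held 5947020 and 5598378 counts in MSCATV-Exo replicates 1 and 2 and 5350295 and 5355098 in MSC-Exo replicates 1 and 2, of which genes annotated as rRNA and the locus LOC257642 took 43.3% and 38.6%, against 37.1% and 37.5%. Olfactory receptor genes, used mainly by olfactory neurons, served as a low reference. RPKM stands for reads scaled to gene length and library size. The olfactory receptor median was 1.71 and 2.28 RPKM in MSCATV-Exo and 2.48 and 2.36 RPKM in MSC-Exo. A threshold of 8.17 RPKM was set at 3 times the median, over olfactory receptor genes, of their mean RPKM in the 4 libraries. Of 19 MSC marker genes found, 9 had a mean above this threshold. These were Thy1, Itgb1, Col1a1, Col3a1, Vim, Sparc, Lgals1, Fn1 and Acta2. The surface markers Nt5e, Eng, Cd44, Alcam and Vcam1 did not pass it, nor did Pdgfra, Pdgfrb, Lepr and Cxcl12. Col1a2 was listed at 0 in all 4 libraries. The summed level of the MSC list was 1026 and 1099 RPKM in MSCATV-Exo and 908 and 1115 RPKM in MSC-Exo. None of 18 leukocyte, 10 endothelial or 10 adipocyte and osteoblast markers passed 8.17 RPKM, although each had counts in some library. The leukocyte list had a median of 4.00 and 4.60 RPKM in MSCATV-Exo and 4.94 and 6.40 RPKM in MSC-Exo. The leukocyte median thus lay above the olfactory receptor median in every library, and the latter may be a low estimate for unused genes. Whether the leukocyte genes were unused was not tested. Of 10 erythroid markers 5 passed 8.17 RPKM (Hba1, Hba2, Hba-a1, Epor and Klf1). The erythroid list summed to 58.7 and 51.3 RPKM against 69.1 and 58.4 RPKM. The part of these differences in the results below was not tested. In bulk libraries, a transcript carried by more vesicles and more copies of it per vesicle cannot be told apart.

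The 10 genes together made up 15976 and 17967 counts in MSCATV-Exo and 11844 and 14651 counts in MSC-Exo. That was 0.269% and 0.321% of all gene counts in MSCATV-Exo and 0.221% and 0.274% in MSC-Exo. Of the counts outside rRNA and LOC257642, they were 0.474% and 0.523% in MSCATV-Exo and 0.352% and 0.437% in MSC-Exo. On that second scale the MSCATV-Exo libraries were the higher ones with no overlap, and on the first scale the groups overlapped. All 10 passed the filter on low counts and had a mean RPKM above 8.17.

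Levels per length spanned a wide range, with Eef1a1 at the top and the initiation factor genes at the bottom. By mean RPKM over the 4 libraries the order was Eef1a1 (476), Ncl (229), Tpt1 (205), Pabpc1 (197), Eef2 (112), Eef1g (88.8), Npm1 (74.6), Eef1b2 (56.4), Eif4a1 (21.5) and Eif4g2 (12.8). Eef1a1 ranked 5th, Ncl 17th, Tpt1 23rd and Pabpc1 24th among all protein-coding genes, whereas Eif4a1 ranked 310th and Eif4g2 698th. The ranges of neighbours over the libraries overlapped for Ncl and Tpt1, Tpt1 and Pabpc1, Eef1g and Npm1, Npm1 and Eef1b2, and Eif4a1 and Eif4g2. Within libraries Npm1 still stood above Eef1b2 in 4 of 4, and the first of each of the other pairs stood above the second in 3 of 4. The ranges did not overlap for Eef1a1 and Ncl, Pabpc1 and Eef2, Eef2 and Eef1g, or Eef1b2 and Eif4a1. Against the olfactory receptor median of the same library, Eef1a1 stood at 270 and 263 times in MSCATV-Exo and 144 and 205 times in MSC-Exo. Eif4g2 stood at 5.01 and 5.76 times against 7.01 and 5.15 times. The median protein-coding gene had 4.12 and 4.54 RPKM in MSCATV-Exo and 4.74 and 4.70 RPKM in MSC-Exo, a higher reference.

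**Figure D1:**
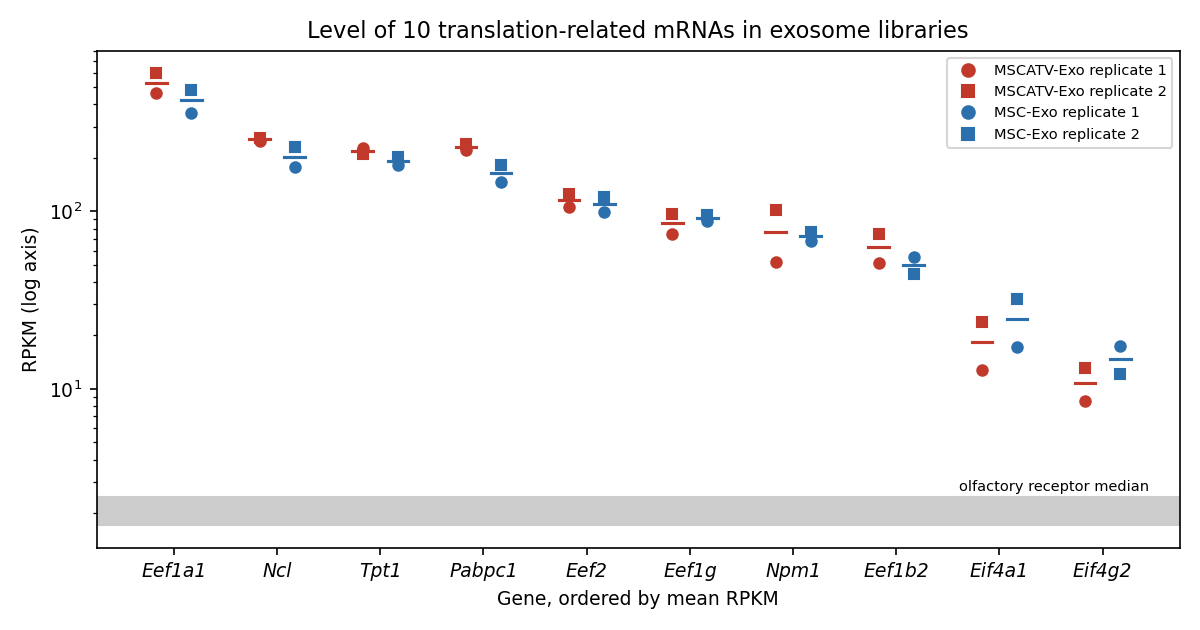
RPKM (log axis) of the 10 genes in each library, with MSCATV-Exo left of MSC-Exo, circles for replicate 1, squares for replicate 2 and short bars for group means. The grey band is the range of the olfactory receptor median over the 4 libraries (1.71 to 2.48 RPKM). Eef1a1 sits highest, and Eif4a1 and Eif4g2 lie closest to the band.

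Between the groups, the fitted differences of the 10 genes were small, and none passed the test across all genes. By edgeR's quasi-likelihood test, 0 of the 10 had an adjusted p under 0.05, and 0% of the 33480 genes tested did. Each of the 10 had an adjusted p of 1.00. At an unadjusted edgeR p under 0.05 there were 3 of the 10 (Pabpc1, Ncl and Eef1a1, all higher in MSCATV-Exo), beside 1236 genes or 3.69% of all tested. DESeq2 on the same counts called Pabpc1 alone among the 10 (adjusted p = 0.0253), beside 0.329% of the 32181 genes to which it gave an adjusted p. In counts scaled to library size with TMM factors (normalised CPM), 5 of the 10 had groups with no overlap, beside 33.5% of all genes tested. In all 5 (Pabpc1, Ncl, Eef1a1, Eef1b2 and Tpt1) the MSCATV-Exo libraries were the higher ones, beside 16.1% of all genes. They were the lower ones for 0 of the 10, beside 17.4% of all genes. Of 267 other protein-coding genes with a mean of 20 RPKM or more, ribosomal protein genes left out, 111 were higher in MSCATV-Exo with no overlap and 28 lower, 39 had an unadjusted edgeR p under 0.05, and DESeq2 called 13. An exact permutation test of 2 libraries against 2 cannot give a two-sided p below 0.333.

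Among the elongation factor genes, Eef1a1 encodes the 1A factor that brings aminoacyl-tRNA to the ribosome. It had 462 and 598 RPKM in MSCATV-Exo and 357 and 485 RPKM in MSC-Exo, so the lower MSCATV-Exo library fell inside the MSC-Exo range on this scale. In normalised CPM it averaged 952 ± 115 in MSCATV-Exo and 708 ± 159 in MSC-Exo (SD, n = 2 each), with groups that did not overlap. The log2 fold change, MSCATV-Exo over MSC-Exo, was 0.43 ± 0.18 (SE; edgeR adjusted p = 1.00). It was 0.21 when MSC-Exo replicate 1, which held the lowest value, was left out, and 0.68 when its partner was.

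Eef1b2 and Eef1g encode the exchange subunit and a structural subunit of the elongation factor 1B complex. Eef1b2 had 50.9 and 74.6 RPKM in MSCATV-Exo and 55.4 and 44.5 RPKM in MSC-Exo, overlapping between the groups, and in normalised CPM 65.9 ± 13.7 against 49.2 ± 7.08 (SD, n = 2 each). Its log2 fold change was 0.42 ± 0.29 (SE), with an edgeR adjusted p of 1.00 and a range of 0.20 to 0.62 with 1 library left out (lowest when MSCATV-Exo replicate 2 was left out, highest when replicate 1 of that group was). Eef1g had 74.4 and 97.0 RPKM in MSCATV-Exo and 88.3 and 95.3 RPKM in MSC-Exo. The MSCATV-Exo values of Eef1g fell on both sides of the MSC-Exo values, and its log2 fold change of -0.00333 ± 0.23 (SE) was far inside its error. Eef1g exceeded Eef1b2 per length in every library, by 1.46 and 1.30 times in MSCATV-Exo and 1.59 and 2.14 times in MSC-Exo. Eef1a1 exceeded Eef1g by 6.21 and 6.16 times in MSCATV-Exo and 4.05 and 5.09 times in MSC-Exo, and Eef1b2 by 9.09 and 8.02 times against 6.45 and 10.9 times.

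Eef2 encodes the translocase of elongation. It had 105 and 125 RPKM in MSCATV-Exo and 99.1 and 120.0 RPKM in MSC-Exo, with replicate 2 above replicate 1 in both groups and groups that overlapped. Normalised CPM averaged 349.7 ± 21.4 against 310.3 ± 45.1 (SD, n = 2 each), a log2 fold change of 0.17 ± 0.19 (SE; edgeR adjusted p = 1.00) that ranged from 0.02 when MSC-Exo replicate 1 was left out to 0.33 when replicate 2 of that group was. The ratio of Eef1a1 to Eef2 in RPKM was 4.39 and 4.77 in MSCATV-Exo and 3.61 and 4.04 in MSC-Exo.

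Of the initiation factor genes, Eif4a1 encodes the DEAD-box helicase of the eIF4F complex, and Eif4g2 (also called DAP5) a relative of the scaffold eIF4G that lacks the site for the cap-binding protein. Eif4a1 had 159 and 278 counts (12.8 and 23.8 RPKM) in MSCATV-Exo and 192 and 359 counts (17.2 and 32.1 RPKM) in MSC-Exo. Replicate 2 exceeded replicate 1 by 1.86 and 1.87 times within MSCATV-Exo and MSC-Exo in RPKM, more than the groups differed. Its log2 fold change was -0.35 ± 0.39 (SE; edgeR adjusted p = 1.00), and it moved with each library. Leaving out MSCATV-Exo replicate 1 gave -0.02 and leaving out its partner gave -0.78, while leaving out MSC-Exo replicate 1 gave -0.74 and leaving out its partner gave 0.19. Eif4g2 had 254 and 366 counts (8.56 and 13.1 RPKM) in MSCATV-Exo and 463 and 325 counts (17.3 and 12.2 RPKM) in MSC-Exo, with 1 MSCATV-Exo library inside the MSC-Exo range. Its log2 fold change was -0.35 ± 0.30 (SE; edgeR adjusted p = 1.00), below 0 in every alternative run, with -0.13 and -0.61 when the first or the second MSCATV-Exo library was left out and -0.09 and -0.58 when the first or the second MSC-Exo library was.

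Pabpc1 encodes the main cytoplasmic poly(A)-binding protein, which coats mRNA tails and binds eIF4G. It had 2900 and 2920 counts (223 and 238 RPKM) in MSCATV-Exo and 1706 and 2147 counts (146 and 183 RPKM) in MSC-Exo. The groups stood apart on both the RPKM and the normalised CPM scale, and the MSCATV-Exo libraries lay close together (526 ± 7.15 CPM, against 349.6 ± 60.0 CPM in MSC-Exo; SD, n = 2 each). The log2 fold change was 0.59 ± 0.18 (SE), with an edgeR p of 0.00752, an edgeR adjusted p of 1.00 and a DESeq2 adjusted p of 0.0253. With 1 library left out it lay between 0.42 (no MSC-Exo replicate 1) and 0.78 (no MSC-Exo replicate 2). Relative to Eif4g2 in RPKM, Pabpc1 stood at 26.0 and 18.2 times in MSCATV-Exo and 8.39 and 15.0 times in MSC-Exo, and relative to Eif4a1 at 17.4 and 10.0 times against 8.46 and 5.70 times. Both ratios were higher in each MSCATV-Exo library than in either MSC-Exo library. Both have Pabpc1, itself apart between the groups, as numerator, so they are no separate result. The share of all gene pairs with such a separation was not computed.

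Tpt1 encodes the translationally controlled tumour protein, a growth-related protein whose mRNA is a classic TOP message. It had 226 and 209.9 RPKM in MSCATV-Exo and 181 and 201 RPKM in MSC-Exo, apart between the groups by a narrow margin. Normalised CPM averaged 181 ± 20.7 in MSCATV-Exo and 147 ± 12.2 in MSC-Exo (SD, n = 2 each), with a log2 fold change of 0.30 ± 0.22 (SE; edgeR adjusted p = 1.00) and values of 0.17 and 0.41 when the first or the second MSCATV-Exo library was left out. The level of Tpt1 relative to Pabpc1 was lower in the treated group, at 1.02 and 0.881 times in MSCATV-Exo and 1.25 and 1.10 times in MSC-Exo. No test was run on the ratios between genes.

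Npm1 and Ncl encode nucleophosmin and nucleolin, abundant nucleolar proteins that take part in ribosome assembly. Ncl had 249.9 and 259 RPKM in MSCATV-Exo and 177 and 229 RPKM in MSC-Exo, and the MSCATV-Exo libraries were the higher ones with no overlap. In normalised CPM it averaged 635 ± 23.3 against 473 ± 89.9 (SD, n = 2 each), with a log2 fold change of 0.43 ± 0.17 (SE; edgeR adjusted p = 1.00). It was 0.24 when MSC-Exo replicate 1 was left out and 0.64 when replicate 2 of that group was. Npm1 behaved differently within the treated group, with 527 and 980 counts (51.6 and 102 RPKM) in MSCATV-Exo around the 626 and 708 counts (68.1 and 77.0 RPKM) of MSC-Exo. Its log2 fold change of 0.16 ± 0.29 (SE; edgeR adjusted p = 1.00) was 0.53 when the first MSCATV-Exo library was left out and -0.32 when the second was, so its direction rested on which of them was kept. The ratio of Ncl to Npm1 in RPKM was 4.85 and 2.54 in MSCATV-Exo and 2.60 and 2.97 in MSC-Exo.

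**Figure D2:**
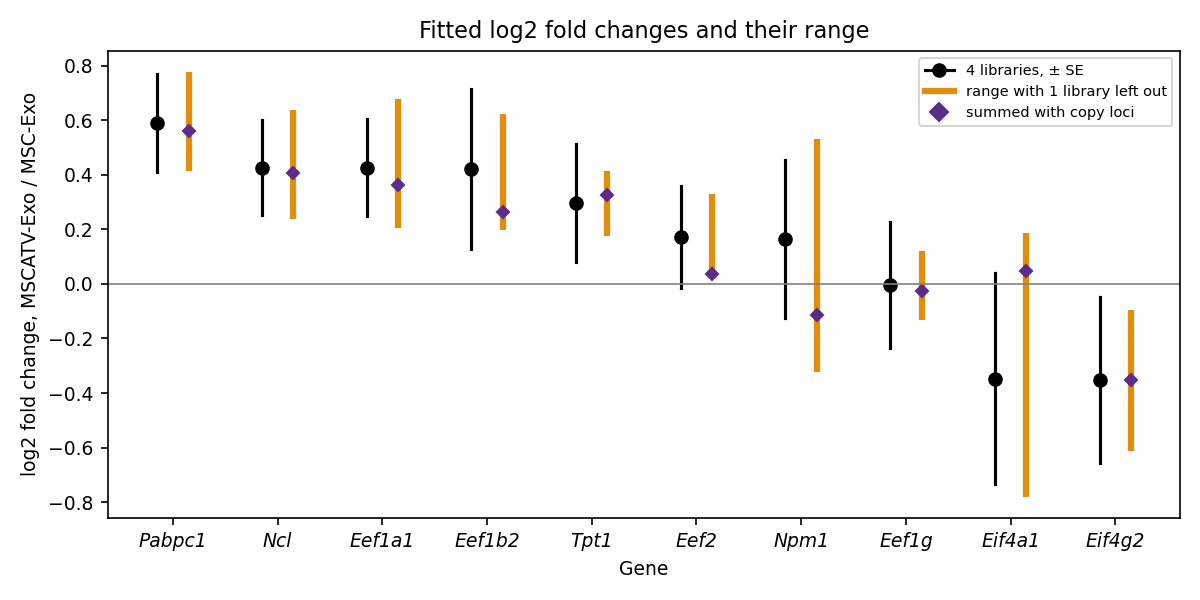
Fitted log2 fold change of each gene, MSCATV-Exo over MSC-Exo, from all 4 libraries (black, ± SE), its range when 1 library is left out (orange bar) and its value when the counts of copy loci are added (purple diamond). The ranges of Eef1g, Eif4a1 and Npm1 cross 0, and those of Pabpc1, Ncl, Eef1a1, Eef1b2, Tpt1 and Eef2 stay above it.

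Replicate 2 tended to stand above replicate 1 in both groups. In RPKM this held for 9 of the 10 genes in MSCATV-Exo and 8 of the 10 in MSC-Exo. In normalised CPM it held for 7 and 8 of the 10, beside 50.8% and 50.4% of all genes tested. Among the 267 other protein-coding genes of 20 RPKM or more, the shares were 54.7% in MSCATV-Exo and 64.4% in MSC-Exo. Among ribosomal protein genes they were 55.3% and 80.3%. The between-group difference exceeded both within-group differences in normalised CPM for 3 of the 10 genes (Pabpc1, Ncl and Tpt1), and for the other 7 a within-group difference was larger.

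As a list, 7 of the 10 had a fitted log2 fold change above 0, with a median of 0.23. Over all 33480 genes tested, 49.4% were above 0 and the median was -0.01. Of the 267 other protein-coding genes of high level, 191 were above 0, with a median of 0.22. With total counts and no TMM factor the median of all genes moved to -0.11 and that of the 10 genes to 0.13, and without MSC-Exo replicate 1 the median of the 10 was also 0.13. Without rRNA genes and LOC257642 the median of the 10 was 0.24, with 8 above 0. The rRNA share and the olfactory receptor level given above also differed between the libraries, and their part in these differences was not tested.

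The authors' deposited table gave a different picture of the same values. It listed 7 of the 10 genes with a q-value under 0.05, beside 34.3% of its 38021 genes, 5 of them higher in MSCATV-Exo (Eef1a1, Eef1b2, Ncl, Pabpc1 and Tpt1) and 2 lower (Eif4a1 and Eif4g2). In the authors' deposited table Pabpc1 had a mean of 230.4 RPKM in MSCATV-Exo and 164 RPKM in MSC-Exo with a q of 0, and Eif4g2 had 10.8 RPKM against 14.8 RPKM with a q of 0.000332. The authors' deposited table gave Eif4a1 a q of 0.00337, although its groups overlapped in RPKM. The test behind these q-values is not given in the sources used here.

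The other genes of the translation machinery were mostly at lower levels, and none of them passed the edgeR test. Of 41 other initiation factor genes tested, 27 had a log2 fold change above 0 and 14 below (median 0.23), and 20 had a mean above 8.17 RPKM. With total-count scaling 24 of the 41 lay above 0 (median 0.13). When only genes above 8.17 RPKM were fitted, 12 of 20 lay above 0 (median 0.10). Eif3a, the largest core subunit of eIF3, was the most abundant of the 41. It had 52.6 and 67.7 RPKM in MSCATV-Exo and 48.3 and 52.1 RPKM in MSC-Exo (log2 fold change 0.36 ± 0.19, SE). Eif5b, the GTPase that joins the ribosomal subunits, had 535 and 422 counts in MSCATV-Exo and 251 and 302 counts in MSC-Exo (0.79 ± 0.28, SE; edgeR adjusted p = 1.00; DESeq2 adjusted p = 0.141). In normalised CPM the MSCATV-Exo libraries were the higher ones with no overlap for 14 of the 41 and the lower ones for 3, beside 16.1% and 17.4% of all genes. The higher ones included Eif3a, Eif5b, Eif3k (15.4 and 25.9 RPKM against 14.1 and 8.42 RPKM) and Eif4b (17.4 and 22.5 RPKM against 15.2 and 18.5 RPKM, which overlap on that scale). Among the lower ones was Eif3b, another eIF3 core subunit, singled out after its values were seen, with 7.42 and 8.99 RPKM against 11.7 and 12.1 RPKM. Eif1, which guards start-codon choice, overlapped, at 24.7 and 18.5 RPKM against 19.0 and 21.2 RPKM.

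Of 6 other elongation factor genes, 3 lay above 0 and 3 below. Eif5a, named as an initiation factor but known to relieve stalled elongation, was the most abundant and lay the other way from Eef1a1, with 32.5 and 22.2 RPKM in MSCATV-Exo and 40.1 and 47.7 RPKM in MSC-Exo (log2 fold change -0.57 ± 0.31, SE; edgeR adjusted p = 1.00). Its groups did not overlap. Eef1d, the delta subunit of the 1B complex, had 9.63 and 12.4 RPKM against 7.27 and 12.1 RPKM. Of 3 tested termination and recycling genes 1 was above 0 (0 with total-count scaling), and the most abundant, Etf1, which encodes the release factor eRF1, overlapped between groups (14.8 and 8.21 RPKM against 11.5 and 14.0 RPKM).

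Among 25 regulators of translation 16 lay above 0 and 9 below (median 0.14), which turned to 11 above and 14 below (-0.07) when MSCATV-Exo replicate 2 was left out. With total-count scaling 14 lay above 0 (median 0.04). Eef2k, the kinase that inhibits elongation factor 2, had 295 and 239 counts in MSCATV-Exo and 132 and 225 counts in MSC-Exo (log2 fold change 0.57 ± 0.35, SE; edgeR adjusted p = 1.00). Eef2k was named for a small p with groups apart, so its separation came with the choice. Its level was 10.7 and 9.19 RPKM against 5.31 and 9.04 RPKM, with MSC-Exo replicate 1 below 8.17 RPKM. Eif4ebp1, an inhibitor of cap binding under mTOR control, had 24.8 and 22.2 RPKM against 25.2 and 11.5 RPKM, overlapping. Of 7 other poly(A)-binding protein genes 4 lay above 0 and 3 below, which turned to 3 above and 4 below when MSCATV-Exo replicate 1 (median -0.13) or MSC-Exo replicate 2 (-0.04) was left out. The 3 below, Pabpc1l (120 and 130 counts against 173 and 135), Pabpc5 (6 and 20 counts against 49 and 52) and Pabpc6 (65 and 48 counts against 94 and 99), had normalised CPM lower in MSCATV-Exo with no overlap. These 3 were named after their values were seen, and each had a mean below 8.17 RPKM. Pabpc4, the closest in level to Pabpc1, had 45.0 and 28.7 RPKM against 33.4 and 31.4 RPKM. Pabpn1, the nuclear protein that sets tail length, had 117 and 107 counts against 50 and 77 counts, with no overlap. Pabpn1 reached a mean of 8.17 RPKM only through MSCATV-Exo, with 5.23 and 8.04 RPKM in MSC-Exo.

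Of 15 other protein-coding genes listed as TOP mRNAs and tested, 13 lay above 0 and 2 below, with a median of 0.28 (12 above 0 with total-count scaling). Of the 15, 8 had normalised CPM higher in MSCATV-Exo with no overlap, beside 16.1% of all genes. The same held for 111 of the 267 protein-coding genes of 20 RPKM or more, which include the TOP genes of that level, such as Vim and Ybx1. Some of the 15, such as Eif4b and Eef1d, are also counted among the initiation or elongation factors above. Vim, which encodes the intermediate filament protein vimentin, was the most abundant, at 225 and 214 RPKM against 187 and 202 RPKM (log2 fold change 0.28 ± 0.18, SE). Fau, a ubiquitin-like fusion with ribosomal protein S30, had 119 and 128 RPKM against 60.1 and 115 RPKM, and Nap1l1, a histone chaperone, had 400 and 588 counts against 269 and 317 counts (0.74 ± 0.29, SE; edgeR adjusted p = 1.00). Btf3, part of the complex that meets nascent chains at the ribosome, had 161 and 144 counts against 62 and 99 counts, and Ybx1, an mRNA-binding protein, had 54.9 and 68.3 RPKM against 43.4 and 52.6 RPKM. Ribosomal protein genes, the core of the TOP class, were above 0 for 66 of 76 tested (median 0.29), with 38 of 46 for the large subunit (0.24) and 28 of 30 for the small subunit (0.41). Their combined count was 57 of 76 above 0 with total-count scaling and 50 of 76 when MSC-Exo replicate 1 was left out, where the large-subunit median was 0.07 (28 of 46 above 0) and the small-subunit median 0.21 (22 of 30).

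Nucleolar assembly genes other than Npm1 and Ncl were at low levels, with 9 of 30 found above 8.17 RPKM. Of 29 tested, 13 lay above 0 and 16 below (median -0.05), which turned to 19 above and 10 below (0.16) when MSC-Exo replicate 1 was left out. The genes with groups apart included Nop56, a core protein of box C/D snoRNPs, with 147 and 112 counts in MSCATV-Exo and 59 and 73 counts in MSC-Exo, and, lower, Bysl, which acts in small-subunit assembly, with 42 and 41 counts against 129 and 97 counts. Rrs1, a factor of large-subunit assembly, had 32 and 30 counts against 116 and 118 counts, a log2 fold change of -1.92 ± 0.53 (SE) with an edgeR adjusted p of 1.00 and a DESeq2 adjusted p of 0.0271. Its level was 3.29 and 3.28 RPKM in MSCATV-Exo and 13.3 and 13.5 RPKM in MSC-Exo. Nop56, Bysl and Rrs1 were named for a small p with groups apart, so their separation came with the choice. Each reached a mean of 8.17 RPKM only through the group where it was higher. Fbl, which encodes the methyltransferase fibrillarin, overlapped at 8.40 and 11.9 RPKM against 10.8 and 15.3 RPKM.

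**Figure D3:**
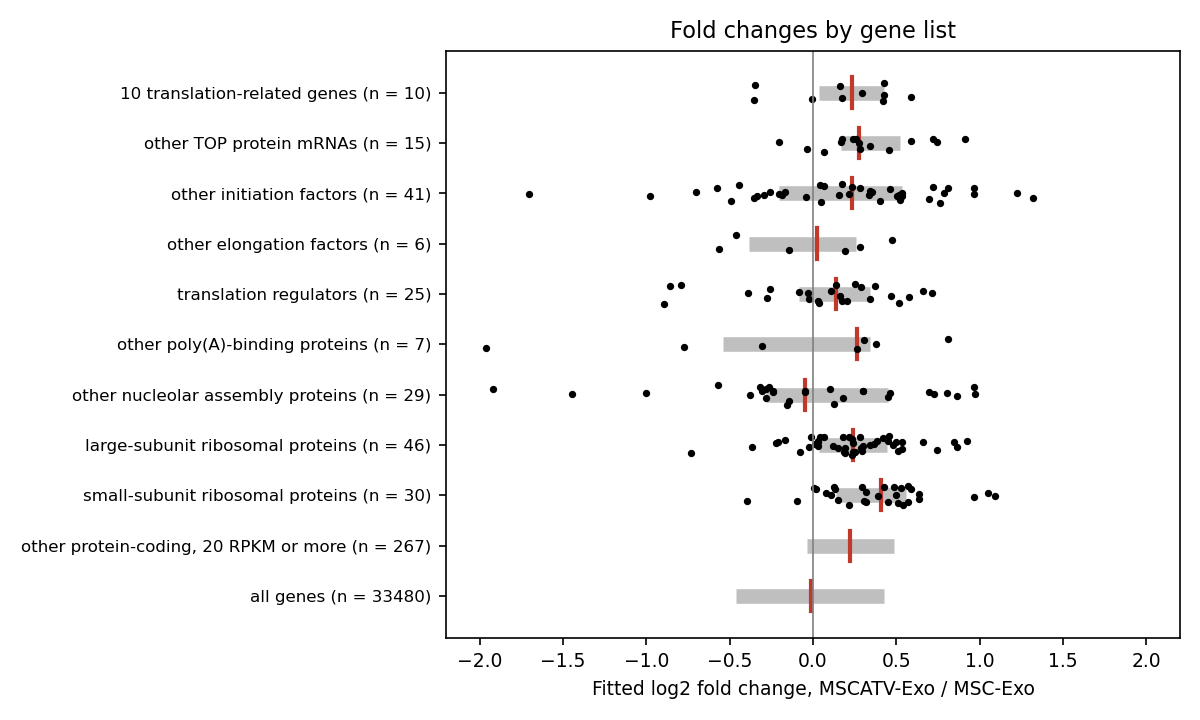
Fitted log2 fold change, MSCATV-Exo over MSC-Exo, by gene list. Red ticks are medians, grey bars run between the lower and upper quartile, and black points are single genes (not drawn for the last 2 rows). The 10 genes (median 0.23) lie near other initiation factors (0.23), other TOP protein mRNAs (0.28) and other protein-coding genes of 20 RPKM or more (0.22), and all genes centre at -0.01.

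Many of these genes have processed pseudogenes, reverse-transcribed copies elsewhere in the genome, and how reads were divided among them is not given in the sources used here. By the table's own descriptions, 77 loci were copies of 9 of the 10 genes (70 typed as pseudogenes), with 18 for Npm1, 17 for Eef1g, 14 for Eef1a1, 11 for Tpt1 and none for Eif4g2. The median over the loci of their mean RPKM in the 4 libraries was 4.00 RPKM. The olfactory receptor median, taken in single libraries, was lower in every library. All gene rows had a median of 3.31 and 3.78 RPKM in MSCATV-Exo and 4.06 and 3.91 RPKM in MSC-Exo. These too are medians of single libraries and not of means, so they are only a rough reference for the copies. Of the 77 copies, 4 had a mean above 8.17 RPKM. The most abundant was LOC100360791, described as a Tpt1 copy, with 23.7 and 50.9 RPKM in MSCATV-Exo and 28.6 and 22.7 RPKM in MSC-Exo. Among the Eef1g copies, LOC364765 had 13.9 and 9.09 RPKM against 24.1 and 29.7 RPKM.

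Summed over loci, the copies held little beside Pabpc1 (1.31% and 0.445% of its counts in MSCATV-Exo, 2.64% and 3.12% in MSC-Exo) and Ncl (4.75% and 5.33%, against 9.82% and 3.92%). They held more than the gene itself for Eef1g (167% and 109% in MSCATV-Exo, 154% and 125% in MSC-Exo). For Eif4a1 they came to 78.0% and 87.8% of its counts in MSCATV-Exo and 64.6% and 27.0% in MSC-Exo, and for Npm1 to 56.7% and 33.6% against 91.2% and 55.1%. With the copies added, the log2 fold change was 0.56 ± 0.18 (SE) for Pabpc1, 0.41 ± 0.16 for Ncl and 0.36 ± 0.16 for Eef1a1, close to the values without them. It turned direction for Eif4a1 (0.05 ± 0.33) and Npm1 (-0.11 ± 0.24), went to 0.03 ± 0.16 for Eef2 and to 0.26 ± 0.29 for Eef1b2, and none passed the edgeR test.

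**Figure D4:**
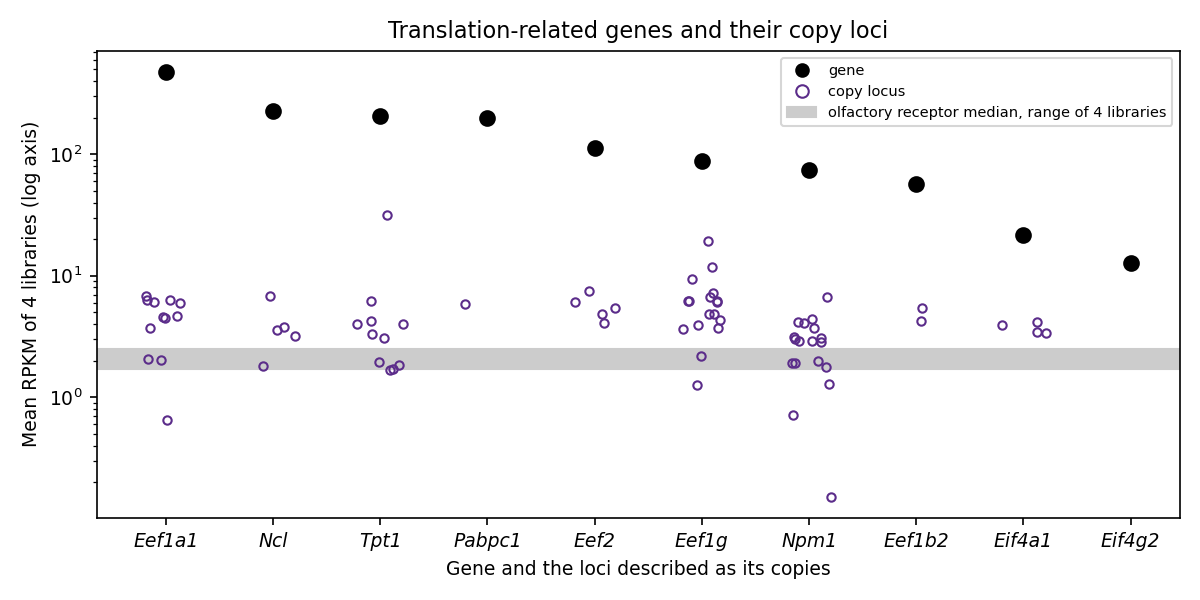
Mean RPKM over the 4 libraries (log axis) of each gene (black) and of the loci described as its copies (open circles; the 2 loci with no count are not drawn), with the range of the olfactory receptor median in grey. Each gene lies above all of its copies, and only loci of Eef1g and Tpt1 come above 8.17 RPKM.

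Overlapping annotation touched 2 of the 10 genes. The kit does not mark the strand, so strand cannot tell apart reads of genes that overlap on opposite strands. For genes that overlap on the same strand, marking it would not help either. The shared bases given here are of genomic spans, introns included. The start of Npm1 (chromosome 10, 18080949 to 18091062, minus strand) shares 1700 bases with LOC102546482 on the other strand, which had 115 and 162 counts in MSCATV-Exo and 136 and 106 counts in MSC-Exo. The far end of Npm1 shares 1342 bases with Fgf18 on the same strand, at 14 and 67 counts against 16 and 15 counts. A non-coding feature of 170 bases inside Eef1b2 (chromosome 9, 69953440 to 69956158, plus strand), on the same strand, had 69 and 24 counts against 11 and 26 counts. On the Rnor_6.0 build named by the submitters, Pabpc1 lies on chromosome 7 (75409581 to 75421874, minus strand), Eef1a1 on chromosome 8 (85838594 to 85841816, minus strand) and Ncl on chromosome 9 (93369119 to 93377643, minus strand). None of the 10 had a row in the deposited table of non-coding transcripts.

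The genes most like the set in pattern were sought among 429 genes of at least 20 RPKM with a gene symbol, by the distance between their centred log2(RPKM + 1) values and the median profile of the 10 over the 4 libraries. The nearest 5 were Arpc1b (distance 0.0442), Rpl7a (0.0618), Rpl14 (0.0785), Oaz1 (0.0820) and Myl6 (0.0935), against a median distance of 0.476. Arpc1b, which encodes an actin-nucleating subunit, had 42.0 and 50.7 RPKM in MSCATV-Exo and 39.5 and 46.7 RPKM in MSC-Exo. Rpl7a, a large-subunit ribosomal protein gene, had 115 and 139 RPKM against 104 and 126 RPKM. In both, replicate 2 stood above replicate 1 in each group, which follows from their choice, as the median profile of the 10 does so too. With 4 libraries this likeness is a description only.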

How the data were processed

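RNA of exosomes from rat MSCs was sequenced in 2 MSCATV-Exo and 2 MSC-Exo libraries. Per the submitters' processing notes, TopHat2 and the rat build rn6 (Rnor_6.0) were used; the TopHat2 version, read counter and annotation release are not given in the sources used here. The authors deposited raw counts per gene and RPKM values, and recomputing RPKM from counts, feature length and the sum of gene counts matched them to within 0.000515%. The authors deposited group mean RPKM, their log2 ratio, and a p-value and q-value in a comparison table. A count of 0 allows up to 3 counts (0.504 to 0.561 CPM), which covers counting error only.

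The quasi-likelihood test of edgeR 4.0.16 (R 4.3.3), two-sided, was run on the counts after filterByExpr and with TMM factors. Its p-values were adjusted by Benjamini-Hochberg over all 33480 genes tested, with a threshold of 0.05, and the procedure was tested on simulated data. SE is the absolute log2 fold change over the root of F. The common biological coefficient of variation was 0.559. Alternatives used DESeq2 1.42.0, limma 3.58.1 on log2(RPKM + 1) and log2(RPKM + 0.1), and others listed in the closing section. The 10 genes and the gene lists were chosen with earlier results of these data known. From each list, the text names up to 3 genes of smallest p with groups apart and a mean of at least 8.17 RPKM, and the 3 most abundant. For genes named by small p, the separation of the groups was part of the choice and is no finding about them. For 1 gene that this rule would name, the values are not reported here. Copies are loci whose deposited description names a gene of the set, the 3 largest per gene being open to naming. Replicate numbers are shared between groups and name no shared source. No library pair was identical.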

Additional observations from a re-analysis of the deposited data

How the results depend on the processing

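The edgeR calls over all genes numbered 0, and 106 with DESeq2, 8 with no filter on low counts and 4 with the replicate block. They numbered 1 when only genes above 3 times the olfactory receptor median were tested, an alternative chosen after seeing the data, and 1 to 168 with 1 library left out (1 and 2 without MSC-Exo replicate 1 or 2, 27 and 168 without MSCATV-Exo replicate 1 or 2). With 1 library left out, the spread comes from the other group alone, and the lone library is assumed to vary like it. Of the 10 genes 0 were called in every run but DESeq2, which called 1, Pabpc1 (log2 fold change 0.59). The number above 0 was 6 to 9 with 1 library left out and 7 or 8 otherwise, and their median 0.13 to 0.31 and 0.13 to 0.24. The median of the other translation factors was 0.17 and went from 0.09 to 0.28 with 1 library left out, and that of the other TOP mRNAs, snoRNA hosts included, was 0.26 and went from 0.18 to 0.35. Without a factor they were 0.06 and 0.16. Eef1g, at -0.00333, turned to 0.00117 with DESeq2, 0.00104 with RLE factors and 0.00186 without rRNA genes and LOC257642, and went from -0.13 to 0.12 with 1 library left out. Eif4a1 turned to 0.048 and Npm1 to -0.11 with copy loci added, and with 1 library left out they went from -0.78 to 0.19 and from -0.32 to 0.53. The cause was not tested. The other 7 genes kept their sign in every alternative run. Subtracting the olfactory receptor median, also added after seeing the data, moved the log2 RPKM ratio of Eif4g2 to -0.48, against -0.45 as deposited. The replicate block changed no call among the 10 genes; the labels share only a number between groups, and differences between replicates did not go together (Pearson r = -0.000516 across 33480 genes, which are not independent). At 2 libraries a group, differences of the size seen here lie near the spread between replicates.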

Other observations

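The class of TOP transcripts also holds non-coding hosts of small nucleolar RNAs, of which 3 on the list were found under their symbols. Gas5, a spliced TOP host RNA, had 42 and 4 counts in MSCATV-Exo replicates 1 and 2 and 40 and 3 counts in MSC-Exo replicates 1 and 2, or 16.5 and 1.67 RPKM against 17.4 and 1.31 RPKM. The groups were thus alike in range, and in both replicate 1 was far above replicate 2, the other way from most of the 10 genes. Snhg11 had 53 and 118 counts against 88 and 74 counts, and Snhg4 had 0 and 0 counts in MSCATV-Exo and 0 and 3 counts in MSC-Exo.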
